A study of Gossypium hirsutum with 8 samples.

Results

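Sucrose synthases are described here through the 4 probe sets of the cotton Affymetrix array whose single annotated gene was SusA1, susC or Sus1. The rule takes them by gene from the array's probe table and uses no measured value, though the genes were proposed with earlier results of these data known. They make up 4 of the 24029 probe sets tested. SusA1 (LOC107910106) had 2 probe sets, called S1 and A1 below after the endings of their identifiers, and susC (LOC107901030) and Sus1 (LOC107958826) had 1 each. The S1 and A1 identifiers share 1 cluster number, and the sources used here do not say which RNA strand each reads. The synonym Sus1 belongs to 2 loci in RefSeq, and the probe set described here is assigned to LOC107958826. Upland cotton carries near-identical A- and D-genome copies of most genes, which a probe set may read together.

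Sucrose synthase joins or splits sucrose in a reversible reaction: sucrose and UDP give UDP-glucose and fructose. Splitting sucrose this way spends no ATP and keeps the energy of the bond in UDP-glucose, whereas invertase releases it by hydrolysis. The enzyme is best known in sink tissues such as roots, seeds and cotton fibre, where UDP-glucose feeds cellulose and other wall polysaccharides. Some sucrose synthase genes of maize and Arabidopsis are known to respond to low oxygen.

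The plants were Gossypium hirsutum cultivar Sicot 71, grown in soil in a glasshouse until they had 2 leaves. The 8 arrays formed 4 groups of 2 biological replicates: whole roots after 4 h of flooding, whole roots of control plants, first leaves after 24 h of flooding, and first leaves of control plants. Flooding put the root system under water up to the hypocotyl, and control plants were left as they had been grown, so the flooded leaves came from plants whose roots were under water. All groups shared the cultivar and the growth stage, and the sources used here do not say how many plants lay behind each array. Tissue and flooding time changed together, so root and leaf responses differ in both and the 2 cannot be told apart. With 2 arrays per group, p-values measure only the spread between these arrays. The arrays read whole organs, in which fewer cells of a type and less RNA per cell cannot be told apart.

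Values are RMA signals on the log2 scale, in which 1 unit is a doubling of signal. Array medians ran between 6.14 and 6.17 in roots and between 5.32 and 5.42 in leaves. No detection calls were used, so the 52 reporter probe sets of the array, which read no cotton gene, served as a guide to low signal. On every array 51 of them lay below the Sus1 signal and 1 did not. The reporter means and percentiles include that bright probe set. The 2 control root arrays stood further apart than the pairs of the other groups, with a root mean square SD over all probe sets of 0.208 in flooded roots, 0.477 in control roots, 0.193 in flooded leaves and 0.315 in control leaves. Of the fixed leaf markers, 1 could be matched, RCA1, the rubisco activase of photosynthetic tissue. It had signals of 5.22 and 5.24 in flooded roots, 5.25 and 5.89 in control roots, 14.62 and 14.66 in flooded leaves, and 14.51 and 14.60 in control leaves. Its leaf signals all lay far above its root signals, and no fixed root marker could be matched.

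**Figure D1:**
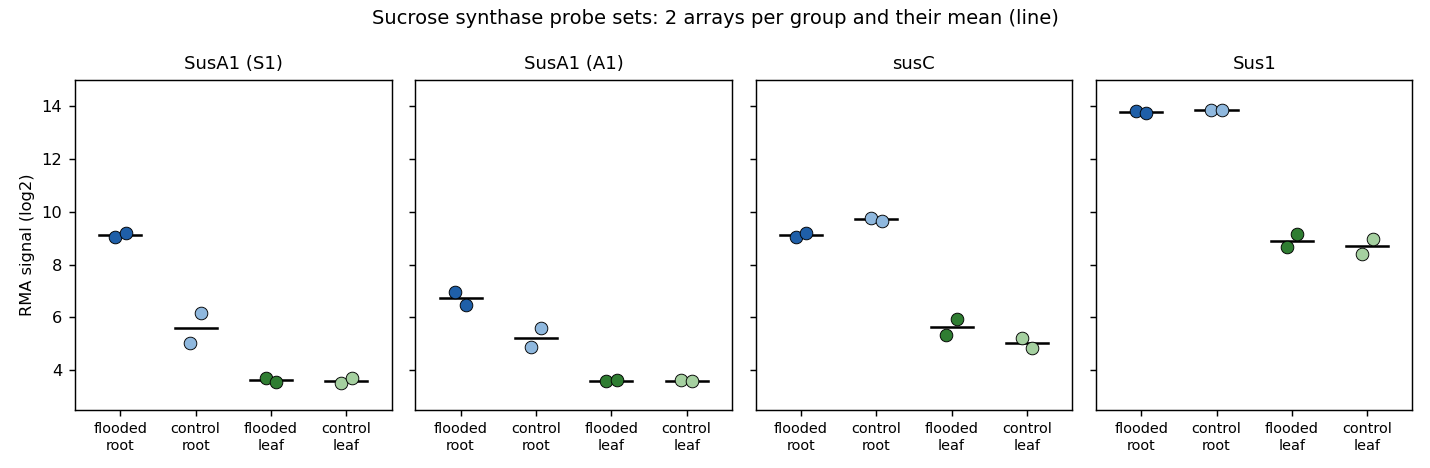
Log2 RMA signal (vertical axis) of each sucrose synthase probe set on the 2 arrays of each group (points) with the group mean (line). SusA1 S1 stood at 9.04 and 9.20 in flooded roots, above 5.04 and 6.15 in control roots, while Sus1 was between 13.75 and 13.87 on all 4 root arrays.

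Among the annotated sucrose synthases described here, only SusA1 passed the test as higher in flooded roots. Other sucrose synthase probe sets may lie among the 23286 with no gene listed and were not examined. The measured signal ratio after 4 h of flooding was 11.5-fold for its probe set S1 and 2.82-fold for its probe set A1. The control root signals of both lay amid the reporters, so the ratios are limited by background. With the control root arrays raised to the 95th percentile of their reporters, the means left S1 5.98-fold and A1 1.13-fold higher. This step was added after the values were seen. The percentile was 5.96 on control root replicate 1 and 7.12 on replicate 2. Both A1 signals in flooded roots, 6.96 and 6.48, lay below 7.12, so for A1 this is no lower bound, while both S1 signals lay above it. The signals of susC and Sus1 in flooded roots did not pass the same test against control roots. Of the 4 probe sets, 2 passed in roots, both higher, where 10.7% of all probe sets passed in either direction and 6.4% passed as higher.

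The S1 probe set of SusA1 had log2 signals of 9.04 and 9.20 in flooded roots and of 5.04 and 6.15 in control roots. The groups lay 2.89 apart at their nearest arrays, and the flooded arrays were close to each other while the control arrays were not. On its array, S1 stood at the 80.4 and 82.1 percentile of all probe sets in flooded roots and at the 25.6 and 49.6 percentile in control roots. It lay above 51 of the 52 reporters on both flooded root arrays, and above 32 and 37 of them on the control root arrays. S1 was thus above all but 1 reporter in flooded roots and amid the reporters in control roots. The difference was 3.53 on the log2 scale (SE 0.33, 95% interval 2.74 to 4.31, limma adjusted p = 0.00089, n = 2 arrays per group). As a ratio of measured signals the interval ran from 6.70 to 19.8. It covers the spread between arrays and not the background under the control root signals, on arrays whose reporters had 95th percentiles of 5.96 and 7.12. A measured difference at least as high was found in 0.553% of all probe sets, and among the 324 probe sets with a gene name S1 ranked 2, positions that share this limit. With the root arrays fitted alone the same difference was less precise (SE 0.41, 95% interval 2.44 to 4.61, limma adjusted p = 0.0277).

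The size of this rise depended on which control root array was used. Without control root replicate 1 the difference was 2.97, and without control root replicate 2 it was 4.08, and S1 passed the test when any 1 of the 8 arrays was left out (limma adjusted p at most 0.0108). The gap of 1.11 between the control root arrays was wider than that of most probe sets, with 10.3% having a larger one. Those arrays also differed in the array's own RNA controls. The 3′ minus 5′ signal of the actin control was 3.97 and 4.00 in flooded roots, against 4.55 on control root replicate 1 and 3.67 on control root replicate 2. For the ubq11 control it was 3.81 and 4.54 in flooded roots, 4.41 and 3.21 in control roots, and 4.54 and 3.11 in control leaves. For ubq11, gaps of this kind were thus not limited to the control root arrays. For a further control, ss1, the gap was widest in control roots, at 4.99 and 2.92. It was 3.88 and 3.94 in flooded roots, 3.17 and 3.86 in flooded leaves, and 2.80 and 3.16 in control leaves. The reporters averaged 5.22 and 5.31 in flooded roots, against 5.17 on control root replicate 1 and 5.81 on control root replicate 2. The part of these differences in the SusA1 result was not tested.

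The A1 probe set of SusA1 had log2 signals of 6.96 and 6.48 in flooded roots and of 4.87 and 5.58 in control roots. Both flooded arrays were above both control arrays, with a gap of 0.90. A1 lay above 51 of the 52 reporters on the flooded root arrays and above 24 and 27 of them on the control root arrays. The difference was 1.50 (SE 0.27, 95% interval 0.86 to 2.13, limma adjusted p = 0.0127), or a signal ratio of 2.82 with an interval of 1.82 to 4.38, under the same limit as S1. It ranked 22 of the 324 named probe sets, and 3.43% of all probe sets were at least as high. This call was lost when each tissue was fitted alone (adjusted p = 0.103 with limma) and when flooded root replicate 1 was left out (1.26, adjusted p = 0.111). S1 and A1 are not independent measurements, since both are assigned to 1 gene and were read from the same RNA.

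**Figure D2:**
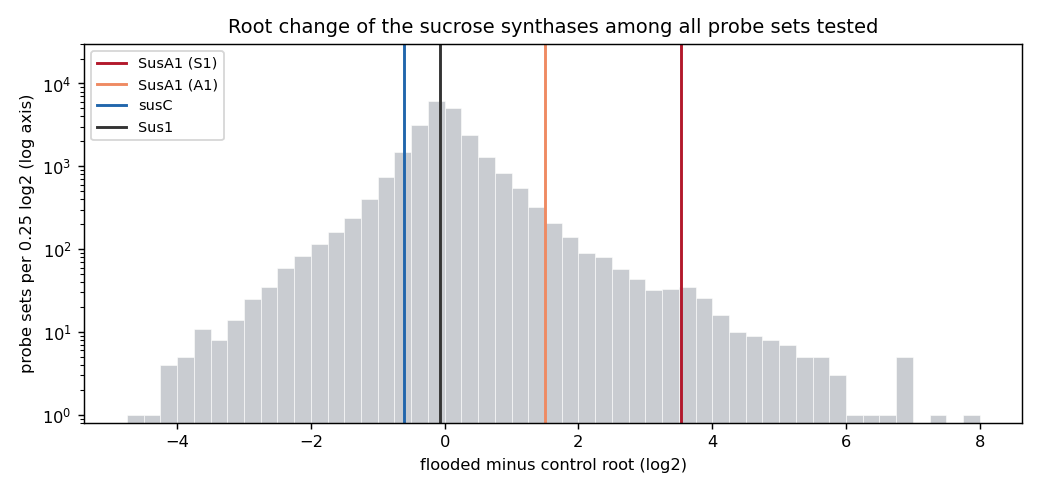
Histogram of the flooded minus control root difference (horizontal axis, log2) over the 24029 probe sets tested, with a log vertical axis, and vertical lines at the 4 sucrose synthase probe sets. SusA1 S1 at 3.53 and A1 at 1.50 lie in the right tail, susC at -0.60 lies left of the bulk's centre and Sus1 at -0.08 lies within it.

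The susC probe set had log2 signals of 9.04 and 9.19 in flooded roots and of 9.77 and 9.66 in control roots. Both flooded arrays were below both control arrays, by 0.48 at the nearest pair. The difference of -0.60 (SE 0.25, 95% interval -1.18 to -0.02) had an unadjusted p of 0.043 and did not pass after adjustment (limma adjusted p = 0.206). Of all probe sets, 11% were at least as low. Its replicate spread was small in both root groups, 9.11 ± 0.10 in flooded and 9.72 ± 0.07 in control roots (SD, n = 2 each).

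Sus1 was near the top of the root arrays with and without flooding. It had log2 signals of 13.81 and 13.75 in flooded roots and of 13.85 and 13.87 in control roots, where the array maxima were between 14.36 and 14.46. It ranked 20 and 27 from the top of all probe sets in flooded roots, and 19 and 17 in control roots. The flooded arrays were both below the control arrays, but by 0.04 at the nearest pair. The difference was -0.08 (SE 0.25, 95% interval -0.65 to 0.50, limma adjusted p = 0.911), an interval that leaves out a doubling and a halving of signal. Signals this close to the array's ceiling can understate a difference, and its part here was not tested.

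In leaves of plants flooded for 24 h, 0 of the 4 probe sets passed the test, where 5.25% of all probe sets did, 2.21% as higher and 3.05% as lower. At an unadjusted p under 0.05 there was 1, susC, where 19.2% of all probe sets were under it. The 2 SusA1 probe sets were low in leaves, susC was intermediate on its arrays, and Sus1 was at or above the 81.0 percentile of all probe sets on every leaf array.

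The S1 probe set of SusA1 had log2 signals of 3.72 and 3.54 in flooded leaves and of 3.51 and 3.68 in control leaves, and A1 had 3.57 and 3.64 in flooded leaves and 3.62 and 3.58 in control leaves. The groups overlapped for both. S1 lay above 30 and 22 of the 52 reporters in flooded leaves and above 14 and 24 in control leaves, so its leaf signal was within the range of probe sets that read no cotton gene. A difference in a transcript below that range would not be detectable here. The fitted differences were 0.03 for S1 (95% interval -0.75 to 0.82, limma adjusted p = 0.978) and 0.01 for A1 (95% interval -0.63 to 0.65, limma adjusted p = 0.993).

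The susC probe set had log2 signals of 5.33 and 5.94 in flooded leaves and of 5.21 and 4.83 in control leaves. Both flooded arrays were above both control arrays, by 0.12 at the nearest pair, and the flooded arrays were 0.62 apart. The difference was 0.61 (SE 0.25, 95% interval 0.04 to 1.19, unadjusted p = 0.040, limma adjusted p = 0.229), and 9.68% of all probe sets were at least as high. It was 0.92 without flooded leaf replicate 1, 0.30 without flooded leaf replicate 2 and 0.42 without control leaf replicate 2. Its sign in leaves was opposite to its sign in roots, and neither difference passed the adjusted test.

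Sus1 had log2 signals of 8.68 and 9.14 in flooded leaves and of 8.41 and 8.98 in control leaves. The groups overlapped, with means of 8.91 ± 0.33 in flooded leaves and 8.70 ± 0.40 in control leaves (SD, n = 2 each), which differ by less than either SD. The difference was 0.21 (95% interval -0.36 to 0.79, limma adjusted p = 0.746).

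The test of the difference itself, the root flooding effect minus the leaf flooding effect, addressed whether a gene responded unlike in the 2 organs. SusA1 S1 was the 1 of 4 that passed, where 8.26% of all probe sets passed, 4.79% with a higher and 3.47% with a lower root effect. Its effects differed by 3.49 (SE 0.47, 95% interval 2.39 to 4.60, limma adjusted p = 0.00718). For A1 the difference was 1.49 (95% interval 0.59 to 2.39, limma adjusted p = 0.0585), for susC it was -1.21 (95% interval -2.03 to -0.40, limma adjusted p = 0.0795), and for Sus1 it was -0.29 (95% interval -1.10 to 0.52, limma adjusted p = 0.730). The A1 and susC values crossed the threshold under some other settings. A1 passed with quantile normalization over the 8 arrays (1.71, adjusted p = 0.0292 with limma), and susC passed there as well (-1.32, adjusted p = 0.0469). The SusA1 signals in control roots and in both leaf groups were within the reporter range, so its root and leaf effects may both be understated, and the part of this in their difference was not tested.

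**Figure D3:**
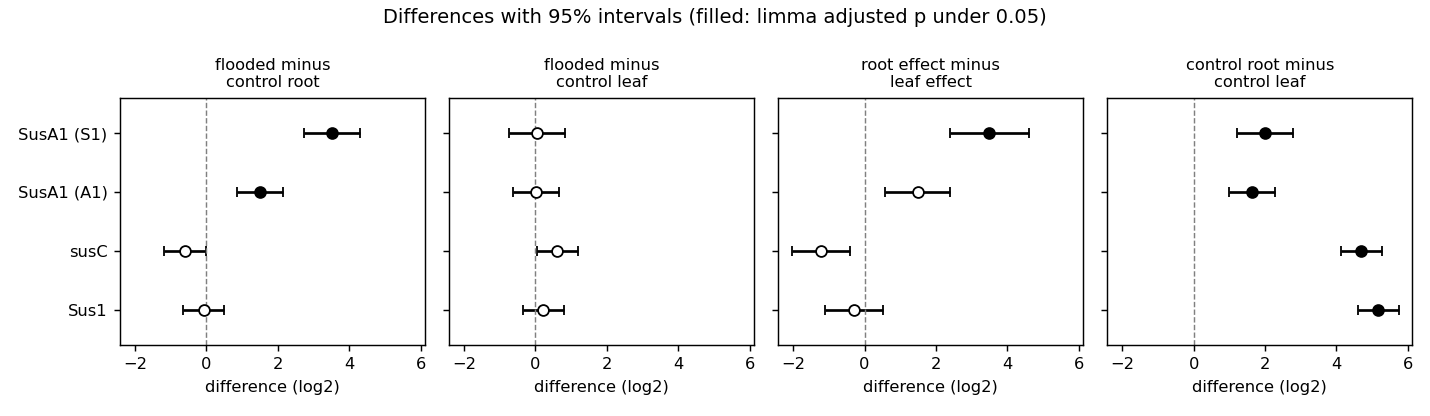
Log2 differences (horizontal axis) of the 4 probe sets with 95% intervals in 4 comparisons, with filled points where the limma adjusted p was under 0.05. The filled points for flooding are SusA1 S1 and A1 in roots and SusA1 S1 in the root effect minus the leaf effect. All 4 are filled for control root minus control leaf on the deposited scale. Those of SusA1 would be open there after quantile normalization over the 8 arrays.

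Without flooding, Sus1 and susC were far higher in roots than in leaves on every scale tried. The SusA1 difference passed on the deposited and centred scales and not after quantile normalization over the 8 arrays. On the deposited scale all 4 probe sets passed as higher in roots, where 76.8% of all probe sets passed in either direction and 66.5% in that direction, so the count itself is close to the background. The median of all probe sets was 1.08 higher in control roots than in control leaves on the deposited scale, and 0.08 after quantile normalization over the 8 arrays, so the comparison of organs depended on the scale. Each value is therefore given on both.

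Sus1 was at 13.85 and 13.87 in control roots and at 8.41 and 8.98 in control leaves, a difference of 5.16 (SE 0.25, 95% interval 4.59 to 5.74, limma adjusted p = 3.4e-06). After quantile normalization the difference was 5.09 (limma adjusted p = 6.45e-06), and with each array centred on its median it was 4.40. By rank it was 19 and 17 from the top in control roots and 4564 and 3347 from the top in control leaves. Only 0.807% of all probe sets had a difference at least as high on the deposited scale.

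The susC probe set was at 9.77 and 9.66 in control roots and at 5.21 and 4.83 in control leaves, a difference of 4.69 (SE 0.25, 95% interval 4.12 to 5.27, limma adjusted p = 5.5e-06). It stood at the 86.7 and 88.3 percentile of control root arrays and at the 47.7 and 43.8 percentile of control leaf arrays. After quantile normalization the difference was 4.04 (limma adjusted p = 1.36e-05), and with median centring it was 3.92. The control leaf signals lay above 47 and 46 of the 52 reporters and below their 95th percentile. Raised to it, they gave a difference of 4.10 on the deposited scale. This is no lower bound between organs, since on that scale the reporters averaged 1.38 higher in control roots than in control leaves. Both Sus1 and susC were thus higher in roots on every scale tried.

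For SusA1 the call itself turned on the scale. S1 was at 5.04 and 6.15 in control roots and at 3.51 and 3.68 in control leaves, a difference of 2.00 (95% interval 1.22 to 2.78, limma adjusted p = 0.00106), which was 0.90 (adjusted p = 0.0916) after quantile normalization and 1.23 (adjusted p = 0.0189) with median centring. The A1 difference was 1.63 (95% interval 0.99 to 2.27, limma adjusted p = 0.00106), which was 0.37 (adjusted p = 0.280) after quantile normalization and 0.86 (adjusted p = 0.0320) with median centring. The organ difference of SusA1 thus passed on the deposited and centred scales and not after quantile normalization. Both organs' SusA1 signals lay amid the reporters, and the reporters themselves averaged 5.49 in control roots and 4.12 in control leaves, a difference of 1.38. No fold between organs is given for SusA1.

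Within each probe set, the order of group means was flooded root, control root, flooded leaf, control leaf for both SusA1 probe sets, and control root, flooded root, flooded leaf, control leaf for susC and Sus1. For SusA1 the neighbours flooded and control leaf did not differ beyond their spread. For susC and Sus1 neither the root neighbours nor the leaf neighbours passed the test. Signals are not compared between probe sets, because each probe set binds with its own strength.

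The named genes whose signals followed each probe set most closely were found over the 8 arrays, each centred on its own mean, by the root mean square difference on the log2 scale. The arrays share organ and treatment, so Pearson r is high for any gene with a root or flooding difference and is given as a description. SusA1 S1 was nearest to ASP3 (root mean square difference 0.56, r = 0.972), to the ethylene response factor ERF7 (0.58, r = 0.972) and to AOX1 (0.63, r = 0.983), the alternative oxidase of mitochondria, followed by MYB5 and RAV. ERF7 had log2 signals of 10.15 and 9.16 in flooded roots and of 6.68 and 6.05 in control roots, with all 4 leaf arrays between 3.63 and 3.86. AOX1 had 11.35 and 10.25 in flooded roots and 6.96 and 6.97 in control roots. In both genes, as in S1, the flooded root arrays stood alone at the top.

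SusA1 A1 was nearest to the manganese superoxide dismutase Mn-SOD (0.28, r = 0.980), with signals of 7.53 and 7.86 in flooded roots and of 5.98 and 6.44 in control roots. BNLGHi8377, the peroxidase pod7, the calcium sensor CBL1 and RAV followed. RAV was in the lists of both SusA1 probe sets, through a different probe set in each. After quantile normalization over the 8 arrays it was in neither list, and BNLGHi8377 was in both. For susC the nearest were GLU (0.30, r = 0.993), the fasciclin-like FLA6 (0.31), the gibberellin receptor GID1-4 (0.36), GZFP and CBF17. GLU had log2 signals of 10.96 and 11.06 in flooded roots and of 12.12 and 12.11 in control roots, against 7.53 and 7.92 in flooded leaves and 6.65 and 6.79 in control leaves. It had the pattern of susC, with control roots above flooded roots and leaves far below.

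Sus1 was nearest to GST, a glutathione S-transferase (0.27, r = 0.997), and 3 probe sets of all those tested were closer. GST had log2 signals of 13.55 and 13.45 in flooded roots and of 13.69 and 13.77 in control roots, against 8.40 and 8.64 in flooded leaves and 8.08 and 7.95 in control leaves. The next named gene was susC itself (0.58), with 143 tested probe sets closer, followed by GLU, GZFP and GID1-2. After quantile normalization over the 8 arrays, susC was not among the 5 nearest to Sus1. After quantile normalization, 4 of the 5 named genes were shared for S1, 3 for A1, 4 for susC and 3 for Sus1.

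**Figure D4:**
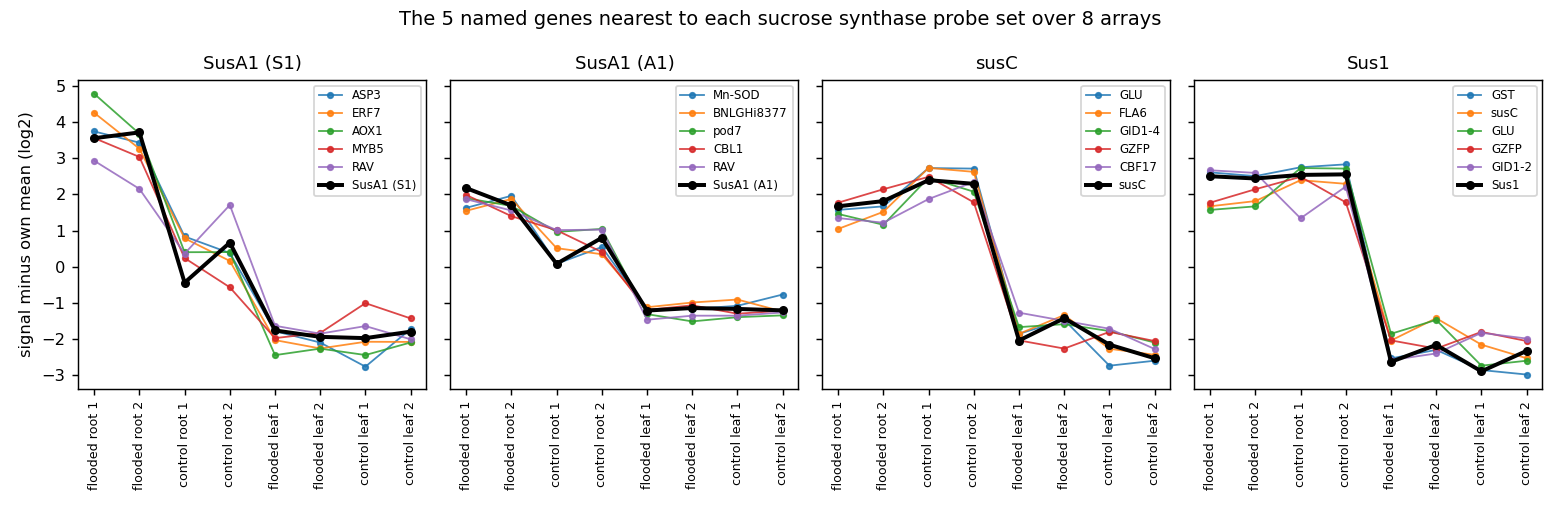
Log2 signal minus each gene's own mean (vertical axis) over the 8 arrays (horizontal axis) for each sucrose synthase probe set (black) and its 5 nearest named genes. SusA1 S1 and its neighbours are highest in flooded roots, while susC and Sus1 and most of their neighbours are high on all 4 root arrays.

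UDP-glucose, the product of the splitting reaction, is used by wall-building enzymes. Of a fixed list of these, only CelA1 and UGD2 could be matched by symbol, since most probe sets had no gene listed. Other such enzymes on the array were not examined. The list of UDP-glucose users in the wall had 3 probe sets; in flooded roots 0 rose, 2 fell and 1 did not pass, with a median difference of -1.60, where 4.28% of all probe sets fell and the median of all was -0.02. In leaves 0 of the 3 passed (5.25% of all), and 0 were under an unadjusted p of 0.05 (limma, 19.2% of all).

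UGD2, a UDP-glucose dehydrogenase that makes UDP-glucuronate, had log2 signals of 7.24 and 7.44 in flooded roots and of 8.97 and 9.25 in control roots. Both flooded arrays lay well below both control arrays, and the leaf arrays lay between 9.14 and 9.95. The difference was -1.77 (SE 0.22, limma adjusted p = 0.00282), and it passed under all 17 alternatives. The root effect minus the leaf effect was -2.23 (limma adjusted p = 0.00811), a call that was lost without flooded root replicate 1 or without flooded leaf replicate 2 (adjusted p = 0.0506 and 0.0540).

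CelA1, a cellulose synthase catalytic subunit, had log2 signals of 8.77 and 9.25 in flooded roots and of 10.36 and 10.86 in control roots on 1 of its 2 probe sets. The groups did not overlap, and the difference was -1.60 (SE 0.37, limma adjusted p = 0.0330). The call was lost in 8 of the 17 alternatives, array weights (adjusted p = 0.123) and the replicate block (adjusted p = 0.0535) among them. The other CelA1 probe set was at 5.04 and 4.91 in flooded roots and at 5.22 and 5.99 in control roots, with a difference of -0.63 (limma adjusted p = 0.238) that passed only without control root replicate 1 (-1.01, adjusted p = 0.0143). The 2 probe sets of the gene thus differed in their calls.

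A further list of genes that convert UDP-sugars or build other wall polysaccharides was drawn up after the annotation had been seen. It held 4 probe sets, of which 0 rose, 2 fell and 2 did not pass in flooded roots (median -0.76), where 6.4% of all probe sets rose and 4.28% fell. In leaves 0 of 4 passed, also at an unadjusted p under 0.05 (limma), where 5.25% of all passed and 19.2% were under that p. RHM3, a UDP-rhamnose synthase, had log2 signals of 9.82 and 9.71 in flooded roots and of 11.08 and 11.12 in control roots. The pairs were tight and apart, with a difference of -1.33 (SE 0.21, limma adjusted p = 0.00653) that was lost without either flooded root array (adjusted p = 0.0521 and 0.0582). GAE2, a UDP-glucuronate 4-epimerase that leads towards pectin, had signals of 7.78 and 8.04 in flooded roots and of 9.26 and 10.47 in control roots.

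The GAE2 groups did not overlap, and the control arrays stood apart from each other. Its difference was -1.95 (SE 0.43, limma adjusted p = 0.0266). Without control root replicate 1 it was -2.56, and the call was lost in 5 alternatives, the highest adjusted p being 0.168. GAE3 differed by -0.19 (adjusted p = 0.639) and the cellulose synthase-like CslD1 by 0.06 (limma adjusted p = 0.905). Both lay below the mean of the reporters on every root array, so a change in either may be missed. The genes of both lists that passed were lower in flooded roots, while SusA1 was higher. The lists were chosen with earlier results of these data known, and a link between these genes and SusA1 was not tested.

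**Figure D5:**
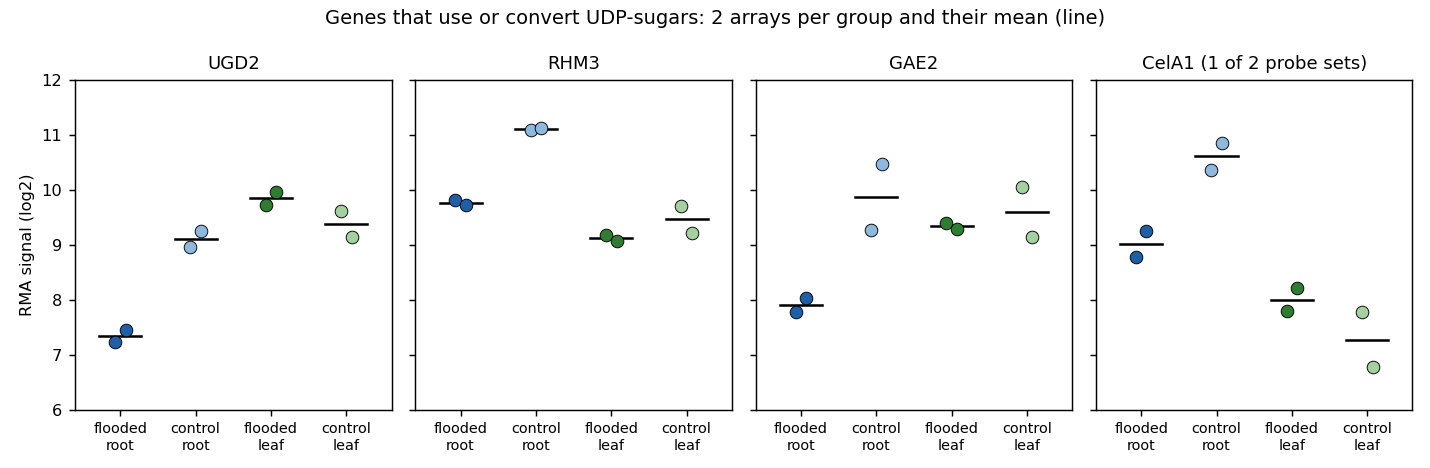
Log2 RMA signal (vertical axis) of 4 genes that use or convert UDP-sugars, on the 2 arrays of each group (points) with the group mean (line). In each panel both flooded root arrays lie below both control root arrays, and for UGD2 and GAE2 they also lie below all 4 leaf arrays.

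Few members of the other lists could be matched, since 23286 of the 24029 probe sets had no gene listed. Of the sucrose and starch enzymes, 1 could be matched, TPS1, a symbol with more than 1 use. It differed by -0.38 in roots (limma adjusted p = 0.439) and by 0.35 in leaves (limma adjusted p = 0.526). Its signals lay below the mean of the reporters on every root array. No enzyme of glycolysis or fermentation could be matched by symbol. Of 10 probe sets for low-oxygen and ethylene genes, 2 rose, 2 fell and 6 did not pass in flooded roots, with a median of -0.33, where 6.4% of all probe sets rose and 4.28% fell. AOX1 rose by 3.83 (limma adjusted p = 0.00067), and 1 of the 4 probe sets of ACS rose by 2.00 (adjusted p = 0.0372). ACS is a symbol of ACC synthase that has more than 1 use. The ACS value was 1.21 without flooded root replicate 1 and 2.80 without flooded root replicate 2, and its call held in 8 of the 17 alternatives. ACS1 fell by 1.06 (adjusted p = 0.0115) and ACS3 fell by 1.70 (adjusted p = 0.0216), calls that held in 13 and 12 of the 17 alternatives. In leaves 0 of the 10 passed (5.25% of all), and 2 were under an unadjusted p of 0.05 (limma), a share close to the 19.2% of all probe sets.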

How the data were processed

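Total RNA of 8 samples was labelled with biotin and hybridised to cotton Affymetrix arrays. The authors deposited 1 table of log2 signals, a column per array; the submitters' processing notes name RMA and limma, without versions. All columns had a sample (0 without). The table held 24132 probe sets; 103 control probe sets were left out and 24029 tested. Genes were named from the platform annotation, matched to RefSeq (assembly Gossypium_hirsutum_v2.1): 697 probe sets had 1 gene, 46 several and 23286 none, and 324 of the first had a gene name.

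One limma model (limma 3.58.1, R 4.3.3) with a mean for each of the 4 groups was fitted to all arrays, with empirical Bayes variances (residual df 4, prior df 3.48) and Benjamini-Hochberg adjustment over all probe sets at 0.05. It was run on simulated data with the same spread in every group, which cannot test the unequal spread of these groups. Named were the 4 members, the list genes that passed in either flooding comparison (otherwise the 2 with the smallest p) and the 5 nearest named genes. The members and lists were chosen with earlier results of these data known. Alternatives were array weights, an intensity trend, other normalizations, a low-signal filter, fits per tissue, a replicate block and leaving out each array. Deviations of same-numbered arrays from their group means correlated at 0.0367 in roots and -0.187 in leaves, so the numbers were not taken to pair arrays. Precision is limited by how few arrays there were.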

Additional observations from a re-analysis of the deposited data

Results flagged for a closer look

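The flooding effect of SusA1 probe set S1 differed between organs. The root effect minus the leaf effect was 3.49 on the log2 scale (limma adjusted p = 0.00718), from an effect of 3.53 in roots flooded for 4 h and of 0.03 in leaves flooded for 24 h. Both flooded root arrays were above both control root arrays, and the leaf groups overlapped. Organ and flooding time cannot be told apart, and the control root and leaf signals lay within the range of the reporter probe sets.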

How the results depend on the processing

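The rise of SusA1 S1 in roots, its difference from the leaf effect, and the higher root signal of susC and Sus1 passed under all tested alternatives. Raised to the reporters' 95th percentile, with no test, the lower groups left mean differences of 2.58 for S1 and 0.18 for A1 in roots. The A1 value is no lower bound, since both flooded root signals lay below that percentile on control root replicate 2. For susC between organs 4.10 was left on the deposited scale, which is no lower bound, since median centring gave 3.92. With an array left out, S1 ranged from 2.97 to 4.08 in roots and from 2.94 to 4.05 for the root minus leaf effect. SusA1 A1 in roots ranged from 1.14 to 1.86 and did not pass without flooded root replicate 1 (1.26) or with each tissue fitted alone (1.50). Its root minus leaf effect ranged from 1.13 to 1.85, passed without either control root array, and passed with an intensity trend (1.49), quantile normalization over the 8 arrays (1.71) or within tissue (1.41), and signals under the 0.25 quantile left out (1.49). That of susC passed with quantile normalization over the 8 arrays (-1.32) or within tissue (-1.42). The susC leaf difference ranged from 0.30 to 0.92 and was never called. The root minus leaf control difference of S1 (0.90) and A1 (0.37) did not pass with quantile normalization over the 8 arrays, and passed with it within tissue (2.07 and 1.64). Leaf differences that changed sign with an array left out were never called: S1 -0.055 to 0.12, A1 -0.026 to 0.045 and Sus1 -0.069 to 0.50, where without flooded leaf replicate 1 S1 was -0.054, without control leaf replicate 2 A1 was -0.010 and without flooded leaf replicate 2 Sus1 was -0.020. CslD1 in roots ranged from -0.056 to 0.17 and was -0.022 without control root replicate 1.

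Counts of probe sets called moved further. In roots there were 2566, against 1399 with array weights, 1021 with the tissue fitted alone and, with an array left out, 997 (flooded root replicate 1) to 6781 (control root replicate 1). In leaves there were 1262, against 3034, 2106, 0 (without flooded leaf replicate 1, where 2642 had an unadjusted limma p under 0.05) and 3245 (without either control root array). The root minus leaf effect had 1985, against 473 (without flooded leaf replicate 1) to 5294 (without control root replicate 1). Control root minus leaf had 18450, against 9460 with quantile normalization, 12228 with median centring and 12174 without signals under the 0.25 quantile. The higher and lower calls split 5095 and 4365 with quantile normalization there, 7743 and 4485 with median centring, 1636 and 1526 in roots with quantile normalization, and 636 and 612 in leaves with median centring. The causes were not tested.

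With the replicate block, 2275 probe sets were called in roots, 811 in leaves and 1509 for the root minus leaf effect. The block changed no sucrose synthase call. In leaves fitted alone, a block with the numbers crossed, chosen after seeing the data, called 3159, against 924 with the numbers as labelled and 2106 with no block.

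Limits are the 2 arrays per group, SusA1 leaf and control root signals and susC control leaf signals within the reporter range, Sus1 root signals near the array maximum, and root and leaf arrays on different scales.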

Other observations

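The array also carries 3 control probe sets named ss1, for the 3′ end, the middle and the 5′ end of a transcript, which were left out of the test and whose gene is not named in the sources used here. The 3′ set followed the Sus1 probe set over the 8 arrays, each centred on its mean, with a root mean square difference of 0.19 and r = 0.999, and 0 of the tested probe sets were closer. Its log2 signals were 13.53 and 13.58 in flooded roots, 13.59 and 13.57 in control roots, 8.67 and 9.05 in flooded leaves, and 8.73 and 8.80 in control leaves. The middle set differed from Sus1 by 1.23 and the 5′ set by 0.79, with 1152 and 361 tested probe sets closer. The 5′ set had 9.65 and 9.64 in flooded roots and 8.59 and 10.65 in control roots, so the control root arrays were apart at the 5′ end and close at the 3′ end. The 3′ minus 5′ signal of ss1 was 3.88 and 3.94 in flooded roots, 4.99 and 2.92 in control roots, 3.17 and 3.86 in flooded leaves, and 2.80 and 3.16 in control leaves.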
